A study of Mus musculus with 18 samples.

Results

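Tight junctions seal the space between epithelial cells, gap junctions join their cytoplasm through channels, and desmosomes anchor neighbouring cells to each other's keratin filaments. The transcripts of these junctions were followed in molar dental epithelium of mice, the tissue that gives rise to the enamel-forming ameloblasts. The genes were chosen by symbol: all claudins (Cldn), desmocollins (Dsc), desmogleins (Dsg), connexins (Gj), plakophilins (Pkp), MARVEL-domain genes (Marveld) and zonula occludens genes (Tjp), with Ocln, Jup, Dsp, Perp, Epcam, Cdh1, Cdh2 and Cdh3. This gave 67 symbols of the 33665 that the 3 tables list. Of these, 66 were listed at E17, 6 in the table used here for P0 and 65 at P5. The mutant animals were labelled DKO, with both alleles of Hmgn1 and of Hmgn2 disrupted (Hmgn1-/-; Hmgn2-/-), and WT animals were the control, at E17 before birth (embryonic day), and at P0 and P5 after it (postnatal days). Both genes code for nucleosome-binding proteins, and the study asked how they bear on ameloblast differentiation. Each genotype had 3 libraries at each stage, 18 in all, from epithelium freed from the mesenchyme with dispase. Whether each library stands for its own animal or for a pool, and which strain was used, is not in the labels, so p-values measure the spread between these libraries only, which may be technical.

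In a tight junction, claudins form the sealing strands and some of them open selective pores. Occludin (Ocln) and some MARVEL proteins, such as those of Marveld2 and Marveld3, run in the same strands. The zonula occludens proteins, such as those of Tjp1 and Tjp3, tie the strands to actin. In a gap junction, connexins assemble into channels, among which Cx43, the product of Gja1, is a major one of tooth and bone, and inherited defects of GJA1 in people can include thin enamel. In a desmosome, the cadherins of the Dsc and Dsg families meet between cells, and plakoglobin (Jup), plakophilins and desmoplakin (Dsp) connect them to keratin. PERP is a membrane protein of desmosomes whose loss in mice disturbs enamel. E-cadherin (Cdh1), N-cadherin (Cdh2) and P-cadherin (Cdh3) are the adherens junction cadherins, and EPCAM is an epithelial adhesion protein that stabilises claudins.

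The sequences just before the starts of 3 genes are shown because all were called higher at E17, while at P5 Cldn1 was called higher, Gja1 was not called and Epcam was called lower. They are the 250 bases upstream of the RefSeq start, read 5′ to 3′ on the strand of the gene (build GRCm38.p6). Cldn1 lies on the minus strand (chr16:26371840-26372089), Gja1 on the plus strand (chr10:56377050-56377299) and Epcam on the plus strand (chr17:87635729-87635978). Capitals mark matches, on either strand, to any of 5 motifs: AACNGGTT (Grainyhead-like), CAGGTG (the E-box of Snail and Zeb), TATAAA (the TATA box), GGGCGG (the GC box) and TGANTCA (AP-1). No 2 matches overlap.
Cldn1: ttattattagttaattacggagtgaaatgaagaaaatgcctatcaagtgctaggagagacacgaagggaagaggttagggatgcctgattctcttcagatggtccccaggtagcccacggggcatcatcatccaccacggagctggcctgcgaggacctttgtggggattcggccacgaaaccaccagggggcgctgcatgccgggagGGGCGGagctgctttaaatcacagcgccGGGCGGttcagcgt
Gja1: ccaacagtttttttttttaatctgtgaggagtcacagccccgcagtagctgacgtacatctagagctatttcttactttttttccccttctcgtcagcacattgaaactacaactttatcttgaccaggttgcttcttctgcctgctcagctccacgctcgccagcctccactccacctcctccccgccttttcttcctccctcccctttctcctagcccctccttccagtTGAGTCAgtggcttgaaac
Epcam: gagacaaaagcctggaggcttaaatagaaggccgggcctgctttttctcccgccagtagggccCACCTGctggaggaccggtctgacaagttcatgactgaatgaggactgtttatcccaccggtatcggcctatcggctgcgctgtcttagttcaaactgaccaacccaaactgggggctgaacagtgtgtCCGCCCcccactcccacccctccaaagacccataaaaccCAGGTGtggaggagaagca
The capitals in Cldn1 are 2 GC boxes, that in Gja1 is 1 AP-1 motif, and those in Epcam are 2 E-boxes with 1 GC box between them. The RefSeq table held promoters of 38 of the 67 junction genes. Of all 27025 promoters in it, 32.9% had the GC box in this window, 17.1% the E-box, 13.0% the TATA box, 6.87% the AP-1 motif and 1.71% the Grainyhead-like motif. Among the 38 junction genes the counts were 18, 6, 5, 3 and 2 in the same order of motifs. A match is a description of letters only.

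Transcript levels are RPKM (mapped reads scaled to transcript length in kilobases and to library size) summed over the transcripts of a gene. Library headers gave 39209676 to 108920337 alignments per library over the 3 stages. Where the steps of the values were fitted, at E17 and P0, a single read on a transcript of 1 kb came to 0.0219 to 0.0364 RPKM at the best-fitting total of mapped reads. The targeted genes served as the check of the labels at E17 and P5, since the P0 table used here does not list them. Hmgn2 had 0.839, 0.953 and 0.975 RPKM in DKO libraries at E17, against 354, 344 and 320.0 RPKM in WT libraries, and 9.05, 5.44 and 10.4 RPKM in DKO at P5, against 183, 166 and 166 RPKM in WT. Hmgn1 was lower without being lost, at 86.2, 92.9 and 92.7 RPKM in DKO at E17, against 133, 129 and 123 RPKM in WT, and at 72.6, 69.8 and 72.2 RPKM in DKO at P5, against 187, 189.6 and 179 RPKM in WT. The 9 dental epithelium markers used for the check (among them Krt14, Krt5, Trp63, Amelx and Ambn) were all present at E17 and P5, with summed levels of 2024 to 2212 RPKM in DKO and 1639 to 1912 RPKM in WT at E17, and of 197594 to 236227 RPKM in DKO and 109545 to 130277 RPKM in WT at P5.

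Genotypes were compared within a stage on log2(RPKM + 1), which understates the change of low genes, over all genes with at least 1 RPKM in at least 3 of the 6 libraries. As deposited, the median gene differed between genotypes by 0.25 on the log2 scale at E17 and by -0.25 at P5 (DKO minus WT), and by -0.05 at P0. Each comparison was therefore also made after scaling every library to the same upper quartile, which brought these medians to -0.004, -0.06 and -0.04. A gene is called higher or lower only where limma gave a Benjamini-Hochberg adjusted p under 0.05 in the same direction on both scales. Fold changes are given as deposited and then scaled.

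At E17, transcripts of genes from all 3 kinds of junction were more abundant in DKO than in WT epithelium. The genes called higher were 13 of the 43 tested: the claudins Cldn1, Cldn6, Cldn10 and Cldn17, the zonula occludens gene Tjp3, the connexins Gja1 and Gjb6, the desmosomal cadherins Dsc1, Dsc3 and Dsg2, the plakophilin Pkp4, the cadherin Cdh3, and Epcam. A single gene, Cdh2, was lower. The 13 genes are 30.2% of those tested, where 6.61% of all 13728 genes tested were called higher by the same rule, and Cdh2 is 2.33%, where 3.07% of all genes were called lower. On deposited values alone the counts were 27 higher and 1 lower, beside 56.3% and 3.30% of all genes, and on scaled values alone 13 higher and 4 lower, beside 6.61% and 8.03%. Called on both scales, 7 genes were higher without DKO replicate 1 or 3 and 8 without WT replicate 3, while 3 were lower without DKO replicate 1 and 0 without WT replicate 2. Without the filter on low values, Cldn10, Cldn17, Dsc1, Dsg2, Gjb6, Pkp4, Tjp3 and Cdh2 were no longer called (larger adjusted p of the 2 scales from 0.0521 to 0.168). Dsc1 passed that filter through its DKO libraries alone, so its place among the 13 is no support for the count. The same holds for Cldn17, which would not have passed without its DKO libraries, since WT replicates 2 and 3 were under 1 RPKM (0.663 and 0.519). The median fold change of the 43 genes was 0.34 on the log2 scale as deposited and 0.06 scaled, against 0.25 and -0.004 over all genes.

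Gap junctions held the greatest difference in mean RPKM of the 43 genes. Gja1 had 195, 209.9 and 208.8 RPKM in DKO libraries at E17, against 101, 104 and 109 RPKM in WT libraries, and the groups lay far apart. Its log2 fold change was 0.96 ± 0.0701 (SE) as deposited and 0.67 scaled, with adjusted p = 0.000116 and 0.000462 from limma. Gja1 carried most of the connexin transcript, 77.3% to 81.4% in DKO and 70.6% to 73.0% in WT. Gjb6, which codes for Cx30, a connexin of epithelia, stood at 4.77, 3.59 and 4.29 RPKM in DKO against 1.81, 2.43 and 2.09 RPKM in WT, a fold change of 0.74 and 0.53. Every DKO library lay above every WT library for Gjb6, but its call was lost without DKO replicate 1 or 3 or WT replicate 1 or 3 (larger adjusted p of the 2 scales from 0.0624 to 0.0948). Gjb2, the gene of Cx26, which often shares channels with Cx30, had 14.9, 7.63 and 13.5 RPKM in DKO and 6.52, 5.68 and 7.14 RPKM in WT. The groups of Gjb2 did not overlap, yet DKO replicate 2 was near the WT libraries and the scaled test did not pass (fold change 0.50, limma adjusted p = 0.182). Gja4, Gja5 and Gjc1 had scaled fold changes of -0.04, -0.36 and 0.003 and no call.

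Among tight junction genes, Cldn1, which codes for a barrier claudin, had 21.3, 20.7 and 21.4 RPKM in DKO libraries and 10.6, 11.6 and 10.4 RPKM in WT libraries. The DKO libraries agreed within 1 RPKM of each other, and the fold change was 0.90 ± 0.0660 as deposited and 0.63 scaled (limma adjusted p = 0.000116 and 0.00126). Cldn6, a claudin of embryonic epithelia, had 22.7, 25.8 and 24.0 RPKM in DKO against 14.3, 14.0 and 14.6 RPKM in WT, with fold changes of 0.72 and 0.44. Cldn10, whose protein forms ion-selective pores, had 6.41, 6.39 and 6.91 RPKM in DKO against 3.78, 4.40 and 4.08 RPKM in WT (0.57 and 0.33). For all 3 of these claudins each DKO library was above each WT library. The call of Cldn10 was lost without DKO replicate 1 or 3 or WT replicate 3 (adjusted p from 0.0597 to 0.0904).

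Cldn17, the gene of another pore-forming claudin, showed a wide spread: 4.60, 1.53 and 3.75 RPKM in DKO against 1.01, 0.663 and 0.519 RPKM in WT, with DKO replicate 2 well below the other DKO libraries. Its fold change of 1.24 ± 0.258 as deposited (1.08 scaled) lost its call when any library other than DKO replicate 2 was left out (adjusted p from 0.0592 to 0.144). Tjp3, which codes for ZO-3, had 2.87, 2.53 and 3.06 RPKM in DKO against 1.63, 1.45 and 1.76 RPKM in WT (0.55 and 0.35), and its call was lost without any library but DKO replicate 2 (adjusted p from 0.0681 to 0.148). Exons of Tjp3 overlap those of Apba3 on the other strand, and the sources used here do not say whether strand was counted. Ocln, Marveld1, Marveld2, Marveld3 and Tjp1 were not called, with scaled fold changes of -0.21 to 0.23, though Marveld1 passed as lower on scaled values alone. Nor were Cldn3, Cldn4, Cldn5, Cldn7, Cldn11, Cldn12 and Cldn23 (-0.15 to 0.12).

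The desmosomal cadherins did not move alike. Dsc3, the desmocollin of basal epithelial cells, had 70.7, 74.9 and 71.7 RPKM in DKO libraries and 42.1, 40.8 and 43.1 RPKM in WT libraries, and Dsg2, a desmoglein found in most epithelia, had 16.6, 17.7 and 16.8 RPKM in DKO and 9.29, 9.82 and 10.9 RPKM in WT. Neither pair of groups came near to overlapping. The fold change of Dsc3 was 0.77 ± 0.0621 as deposited and 0.49 scaled (limma adjusted p = 0.000162 and 0.00136), and that of Dsg2 0.71 and 0.44. Dsc1, a desmocollin of upper epithelial layers, was low, at 2.52, 1.68 and 1.98 RPKM in DKO against 0.728, 0.432 and 0.571 RPKM in WT (0.95 and 0.80). All 3 WT values lie under the filter of 1 RPKM, so Dsc1 was tested only because its DKO libraries were high, it was below the filter when any DKO library was left out, and its call was lost without the filter (adjusted p = 0.0641). Dsc2, Dsg1a, Dsg1b and Dsg3 were not called and leaned the other way, with scaled fold changes of -0.39, -0.61, -0.42 and -0.54. On scaled values alone Dsg1a and Dsg3 passed as lower (limma adjusted p = 0.0497 and 0.0331). Dsg3 had 20.6, 14.97 and 20.2 RPKM in DKO and 22.8, 21.2 and 22.9 RPKM in WT, with DKO replicate 2 again apart.

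Of the desmosomal plaque genes only Pkp4, a plakophilin that also sits at adherens junctions, was called, at 26.2, 29.8 and 27.6 RPKM in DKO and 19.5, 21.0 and 18.4 RPKM in WT. Its fold change was 0.48 as deposited and 0.20 scaled, and leaving out any library but WT replicate 2 removed the call (adjusted p from 0.0805 to 0.151). Perp, Dsp, Pkp1 and Jup were the most abundant junction genes beside Gja1, and their scaled fold changes were 0.05, -0.18, -0.17 and -0.03, without a call. Pkp3 was not called either (0.43 and 0.15).

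The classical cadherins moved apart. Cdh3 had 17.9, 20.6 and 19.2 RPKM in DKO libraries and 10.6, 10.9 and 11.1 RPKM in WT libraries, and its groups were clearly separate (0.76 and 0.49). Cdh2 had 11.3, 13.0 and 12.6 RPKM in DKO and 14.0, 16.9 and 14.98 RPKM in WT, lower in each DKO library than in any WT library (-0.29 and -0.56). Without WT replicate 2 its fold change as deposited was -0.22 and the call was lost (adjusted p = 0.0564). Cdh1 had 36.1, 39.4 and 38.0 RPKM in DKO and 29.7, 29.5 and 30.0 RPKM in WT, a difference that did not stand out from the shift of all genes (0.34 and 0.05). Epcam had 68.8, 78.1 and 72.2 RPKM in DKO against 44.9, 40.8 and 41.5 RPKM in WT (0.77 and 0.49).

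**Figure D1:**
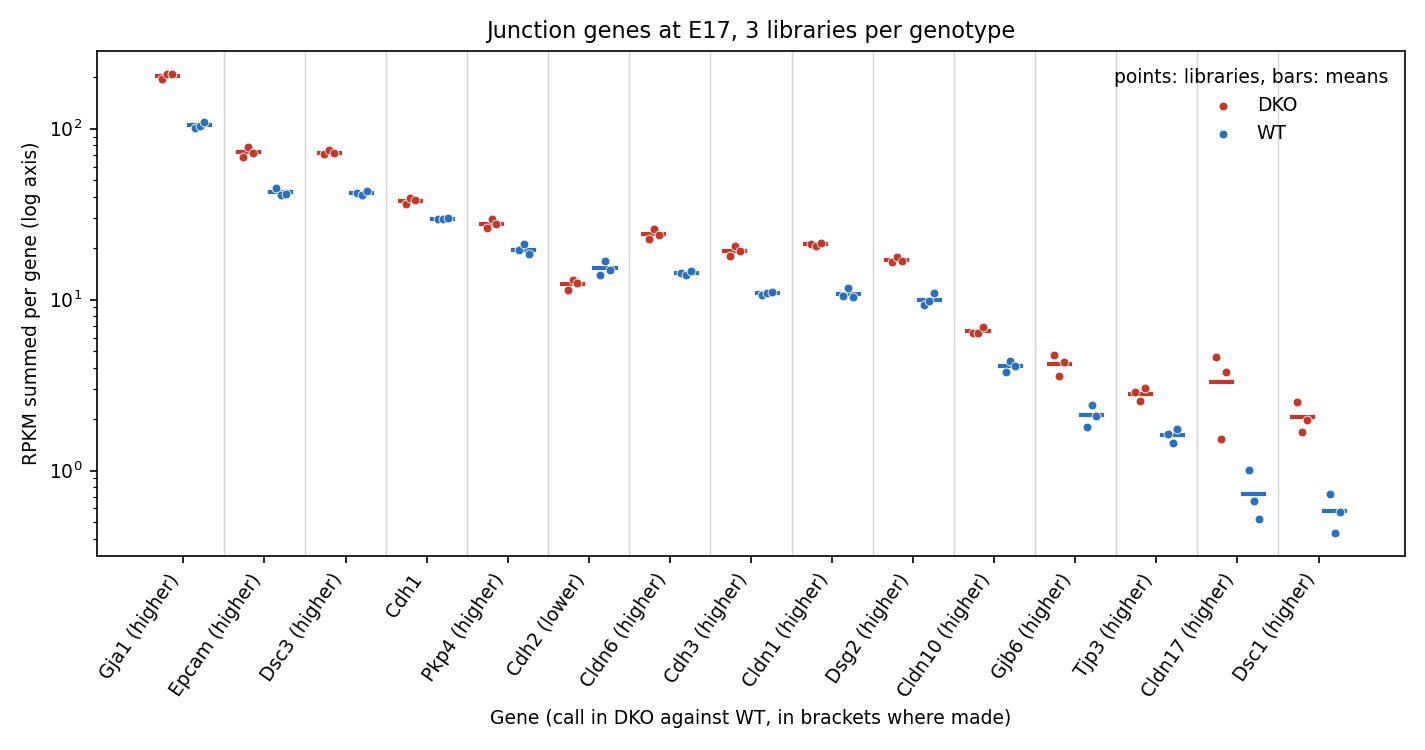
RPKM at E17 (log axis) of the 14 called junction genes and Cdh1, with DKO libraries to the left of WT libraries for each gene; points are libraries and bars are group means. DKO libraries lie above WT libraries for 13 called genes and below them for Cdh2, and the DKO points of Cldn17 spread from 1.53 to 4.60 RPKM.

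Marker lists also differed between genotypes at E17, where 6.61% of all genes were called higher and 3.07% lower. Of the 9 dental epithelium markers whose sums are given above, 5 were higher and 1, Ambn, was lower, with a median fold change of 0.76 as deposited and 0.48 scaled. Sp6 had 65.7 ± 4.17 RPKM in DKO and 18.4 ± 3.36 RPKM in WT (1.51 scaled), and Shh 66.6 ± 2.62 RPKM in DKO and 19.6 ± 3.39 RPKM in WT (1.45 scaled; SD, n = 3 each). Krt5 and Krt14, the most abundant of the 9, were not called, and neither was Amelx (-0.13, -0.15 and -0.23 scaled). Of the 5 stratum intermedium markers, Enpp2 and Vwde were higher, and Alpl, Notch1 and Hey1 were not called. The list had a median fold change of 0.24 as deposited and -0.02 scaled, and summed to 133 to 162 RPKM in DKO and 118 to 151 RPKM in WT as deposited. The 12 mesenchyme markers summed to 2873 to 3063 RPKM in DKO and 4533 to 4966 RPKM in WT, with 5 lower and 0 higher. That sum was led by Col1a1 (896 ± 119 RPKM in DKO and 1975 ± 135 RPKM in WT) and Col1a2 (643 ± 56.8 RPKM in DKO and 1229 ± 22.2 RPKM in WT). The median fold change of the 12 was -0.10 as deposited and -0.39 scaled, and Vim, Twist1 and Msx1 were above 0 as deposited, without a call. The 9 cornifying epithelium markers, of which 7 were tested and 5 were higher, summed to 757, 356 and 688 RPKM in DKO against 333, 223 and 303 RPKM in WT. DKO replicate 2, the lowest of the DKO libraries there, was also the lowest DKO library for Cldn17, Gjb2, Gjb6, Dsc1, Dsg1a and Dsg3. No marker of these lists was at 0 in all libraries. Their part in the results for junction genes was not tested, and in bulk tissue more cells of a type and more RNA per cell cannot be told apart.

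Of the 6 junction genes in the P0 table used here, Gja1, Perp and Pkp1 could be tested. Gja1 had 748, 579.5 and 665 RPKM in DKO libraries and 519, 483 and 573 RPKM in WT libraries, and Perp had 399, 410.2 and 427 RPKM in DKO and 255, 276 and 295 RPKM in WT. Both groups of Perp were well apart, whereas every DKO library of Gja1 was above every WT library by a narrow margin. Perp was called higher (0.58 ± 0.0738 as deposited and 0.60 scaled, limma adjusted p = 7.8e-05 and 0.000144), and so was Gja1 (0.33 ± 0.1001 and 0.36, adjusted p = 0.0186 and 0.00953). The call of Gja1 was lost without DKO replicate 1 (0.25, adjusted p = 0.0799) or WT replicate 2 (0.28, adjusted p = 0.0590), and without the filter on low values (adjusted p = 0.129). Of all 2062 genes tested at P0, 16.7% were called higher and 22.8% lower, so calls were common there. Pkp1 had 67.9, 53.1 and 61.6 RPKM in DKO and 51.3, 54.9 and 55.3 RPKM in WT, groups that overlapped, and was not called. Cldn7 had 0.463, 0.379 and 0.667 RPKM in DKO against 0.993, 1.45 and 1.20 RPKM in WT, and Tjp3 0.391, 0.505 and 0.389 RPKM in DKO against 0.956, 1.004 and 0.664 RPKM in WT. Both were lower in each DKO library than in each WT library and too low to be tested. The 6 mesenchyme markers listed at P0 summed to 2180 to 3031 RPKM in DKO and 737 to 876 RPKM in WT, a sum led by Col1a1 (2263 ± 488 RPKM in DKO and 511 ± 41.5 RPKM in WT; SD, n = 3 each). Col1a1 and Dcn were higher, Col3a1 and Prrx1 were lower, and the median fold change of the 6 was -0.04 as deposited and -0.02 scaled. Their part in these results was not tested.

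At P5, junction genes went both ways in DKO against WT epithelium. The claudins Cldn1, Cldn8 and Cldn20, with Ocln, Gja3, Perp and Cdh2, were higher, 7 of the 35 genes tested. Cldn6, Epcam, Dsc2, Jup and Gja4 were lower, 5 of 35. The share called higher was 20.0%, where 7.35% of all 11423 genes tested were called higher, and the share called lower was 14.3%, where 30.8% of all genes were. Cldn8 passed the filter through its DKO libraries, since WT replicates 1 and 2 were under 1 RPKM. Cldn6 passed it through its WT libraries, since DKO replicates 1 and 2 were under 1 RPKM. Their places in these counts are no support for the counts. Deposited values alone gave 7 higher and 15 lower, beside 7.36% and 58.2% of all genes, and scaled values alone 12 higher and 5 lower, beside 19.4% and 30.8%. The 5 that passed as higher on scaled values alone were Cdh3, Dsc3, Gjb2, Pkp1 and Tjp1. Called on both scales, 3 genes were lower when any one DKO library was left out, and 1 without WT replicate 1 or 3. The median fold change of the 35 genes was -0.20 as deposited and 0.01 scaled, against -0.25 and -0.06 over all genes.

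Cldn1 had 164, 170.5 and 168 RPKM in DKO libraries at P5 and 105, 112 and 102 RPKM in WT libraries, with no overlap and a fold change of 0.65 ± 0.0541 as deposited and 0.87 scaled (limma adjusted p = 1.11e-05 and 1.06e-05). It was the only junction gene called higher at both E17 and P5, of 32 tested at both. Ocln had 8.17, 6.998 and 7.65 RPKM in DKO against 6.34, 5.99 and 6.04 RPKM in WT (0.27 and 0.47). Cldn8, a low claudin here, had 1.69, 1.39 and 1.16 RPKM in DKO against 0.900, 0.707 and 1.04 RPKM in WT (0.36 and 0.47), and lost its call without DKO replicate 1 (0.28, adjusted p = 0.0519). For all 3 genes the groups stayed apart. Cldn6 lay close to the filter, at 0.667, 0.947 and 1.05 RPKM in DKO and 2.63, 1.35 and 1.59 RPKM in WT (-0.58 and -0.45). Its call was lost without DKO replicate 1, WT replicate 1 or WT replicate 3 (adjusted p from 0.0521 to 0.0908), and without the filter (0.0859). Tjp1, which codes for the scaffold ZO-1, passed only on scaled values (0.37, limma adjusted p = 0.00117), at 27.4, 26.4 and 25.1 RPKM in DKO and 25.9, 21.6 and 23.3 RPKM in WT.

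Cldn20 was among the most abundant claudins at P5, with 66.7, 73.0 and 79.7 RPKM in DKO libraries and 56.8, 58.3 and 49.9 RPKM in WT libraries (0.40 and 0.63), and each DKO library was above each WT library. At E17 it was below the filter in every library, at 0.20 to 0.41 RPKM in DKO and 0.23 to 0.38 RPKM in WT. The gene (chr17:3532554-3533213, plus strand) lies inside an intron of Tfb1m (chr17:3519256-3557781, minus strand), which codes for a mitochondrial rRNA methyltransferase. Tfb1m itself had 0.699, 1.25 and 1.01 RPKM in DKO and 2.65, 2.28 and 2.40 RPKM in WT at P5, far below Cldn20 and lower in DKO. Whether reads of the Cldn20 region came from the Cldn20 strand cannot be read from these values.

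**Figure D2:**
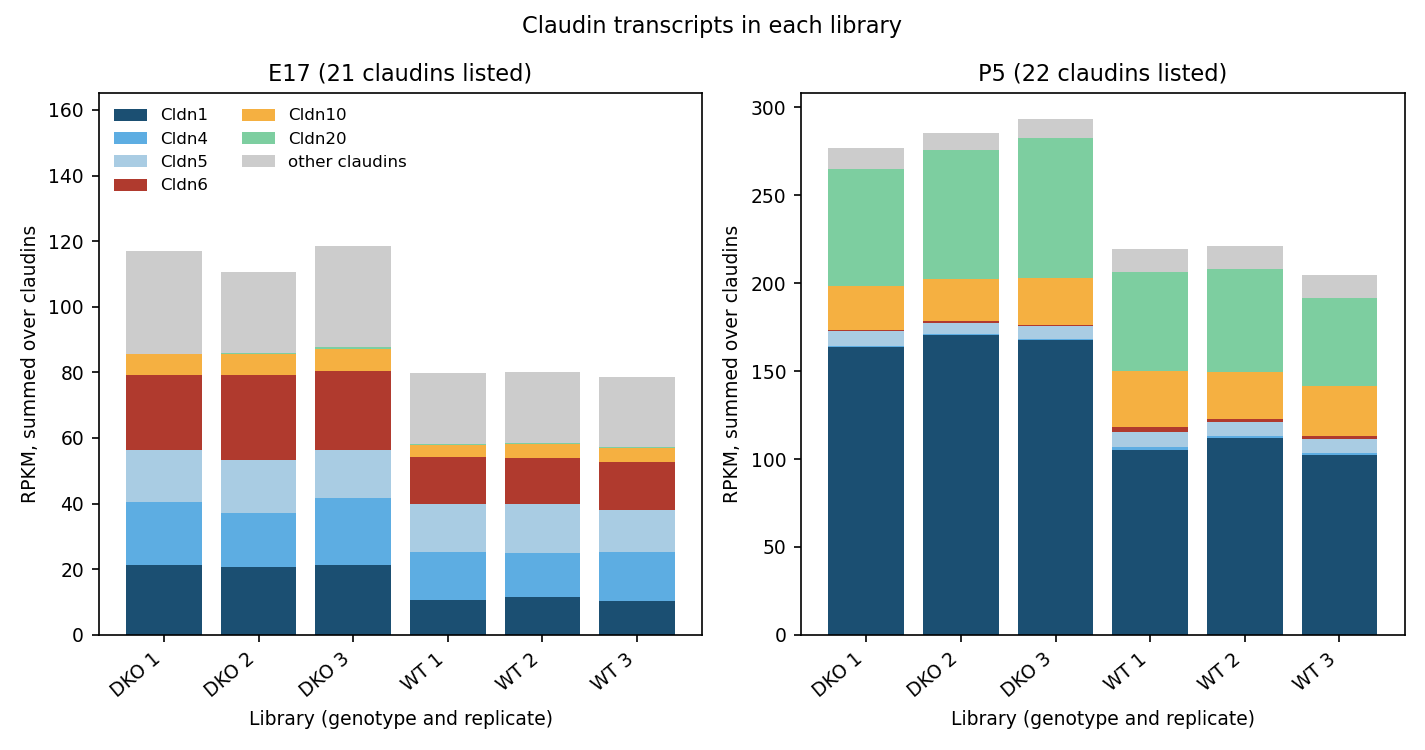
Summed RPKM of all claudins in each library, DKO left of WT, at E17 (left) and P5 (right), with the part of 6 claudins in colour. In every DKO library the stack is taller than in any WT library at the same stage; Cldn1 makes up 57.2% to 59.7% of it in DKO and 47.9% to 50.7% in WT at P5.

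The make-up of the claudin class differed between the stages as listed, though levels are from tables made with different annotations and were not compared. At E17, Cldn1 was 18.1% to 18.7% of claudin transcript in DKO and 13.2% to 14.5% in WT, and Cldn4, Cldn5 and Cldn6 each held a similar part. The claudin sum was 117, 111 and 119 RPKM in DKO at E17, against 79.8, 80.2 and 78.6 RPKM in WT. At P5 it was 277, 286 and 293 RPKM in DKO, against 219.5, 221 and 204.9 RPKM in WT. At that stage Cldn4 was below the filter and Cldn6 held 0.241% to 0.358% in DKO and 0.612% to 1.20% in WT, while Cldn10 held 8.49% to 9.02% in DKO and 12.1% to 14.5% in WT. Cldn10 itself had 24.8, 24.2 and 26.5 RPKM in DKO and 31.9, 26.8 and 28.6 RPKM in WT and was not called at P5.

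Gja1 remained the dominant connexin at P5, 95.3% to 95.7% of connexin transcript in DKO and 95.5% to 96.3% in WT. It had 569, 571 and 529 RPKM in DKO libraries and 755, 664 and 646 RPKM in WT libraries, below WT in every DKO library. The difference passed as deposited (-0.30, limma adjusted p = 0.00259) and not after scaling (-0.08, adjusted p = 0.25), so Gja1 was not called. Gja3, the gene of Cx46, best known from the lens, had 4.59, 4.61 and 5.54 RPKM in DKO against 3.81, 3.30 and 3.14 RPKM in WT (0.42 and 0.60). Gja4, the gene of Cx37, a connexin of blood vessels, had 2.89, 2.15 and 1.76 RPKM in DKO against 3.61, 3.52 and 3.51 RPKM in WT (-0.49 and -0.33). The call of Gja4 was lost without DKO replicate 2 or 3 or any WT library (adjusted p from 0.0765 to 0.132), with median-of-ratios scaling (0.0892) and without the filter (0.123). Beside it, the 8 endothelium markers summed to 39.9 to 53.6 RPKM in DKO and 55.8 to 60.2 RPKM in WT as deposited. Of these 8, 1 was called lower, where 30.8% of all genes were, and their part in the result was not tested. Gjb2, Gjb6 and Gjc1 were not called (0.23, -0.03 and -0.03 scaled), though Gjb2 passed as higher on scaled values alone (limma adjusted p = 0.0488).

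Desmosomal genes at P5 were led by Perp, at 393, 397 and 412 RPKM in DKO libraries and 359, 317 and 325 RPKM in WT libraries, higher in each DKO library (0.27 ± 0.0596 and 0.49, limma adjusted p = 0.00275 and 6.03e-05). Jup had 19.5, 20.4 and 19.1 RPKM in DKO against 30.1, 24.0 and 26.4 RPKM in WT (-0.42 and -0.21), and Dsc2 6.68, 7.23 and 7.34 RPKM in DKO against 11.9, 9.25 and 10.5 RPKM in WT (-0.51 and -0.31). Both were lower in every DKO library than in any WT library. The call of Jup was lost without DKO replicate 1 or 3 or WT replicate 1 or 3 (adjusted p from 0.0715 to 0.0909), with median-of-ratios scaling (0.170) and without the filter (0.0653). Perp, Dsp and Jup together summed to 488, 495 and 499 RPKM in DKO against 488, 409 and 432 RPKM in WT, and Perp was 80.2% to 82.7% of that sum in DKO and 73.6% to 77.4% in WT. Dsc3, the leading desmosomal cadherin, had 53.8, 54.3 and 54.4 RPKM in DKO and 63.7, 52.5 and 54.5 RPKM in WT, overlapping groups without a call, though it passed as higher on scaled values alone (0.16, limma adjusted p = 0.0384; -0.07 as deposited). Dsg1a, Dsg1b, Dsg2, Dsg3, Dsp, Pkp1, Pkp3 and Pkp4 had scaled fold changes of -0.11 to 0.22 and no call, of which Pkp1 passed as higher on scaled values alone (0.22, limma adjusted p = 0.0416).

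Cdh2 was higher at P5, at 48.3, 50.0 and 48.9 RPKM in DKO libraries and 40.9, 40.8 and 39.3 RPKM in WT libraries, with wholly separate groups (0.28 ± 0.0520 and 0.50, limma adjusted p = 0.000983 and 5.61e-05). Cdh1 had 76.9, 80.4 and 75.5 RPKM in DKO and 121, 83.9 and 99.2 RPKM in WT, and its lower DKO values passed as deposited but not after scaling (-0.37 and -0.14). WT replicate 1 was the highest of all for Cdh1, Epcam, Dsc2 and Jup, and leaving out WT replicate 2 brought Cdh1 past the threshold on both scales (-0.49, adjusted p = 0.000259 and 0.00908). Cdh3 had 31.9, 33.5 and 29.3 RPKM in DKO and 34.1, 28.4 and 29.7 RPKM in WT, with overlap and no call, though it passed as higher on scaled values alone (0.26, limma adjusted p = 0.0117). Epcam had 19.1, 20.7 and 21.7 RPKM in DKO against 33.4, 24.8 and 30.3 RPKM in WT, lower in each DKO library (-0.50 and -0.28). Its call was lost without DKO replicate 1 or 2 or WT replicate 1 or 3 (adjusted p from 0.0560 to 0.09996), with median-of-ratios scaling (0.105) and without the filter (0.0826).

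**Figure D3:**
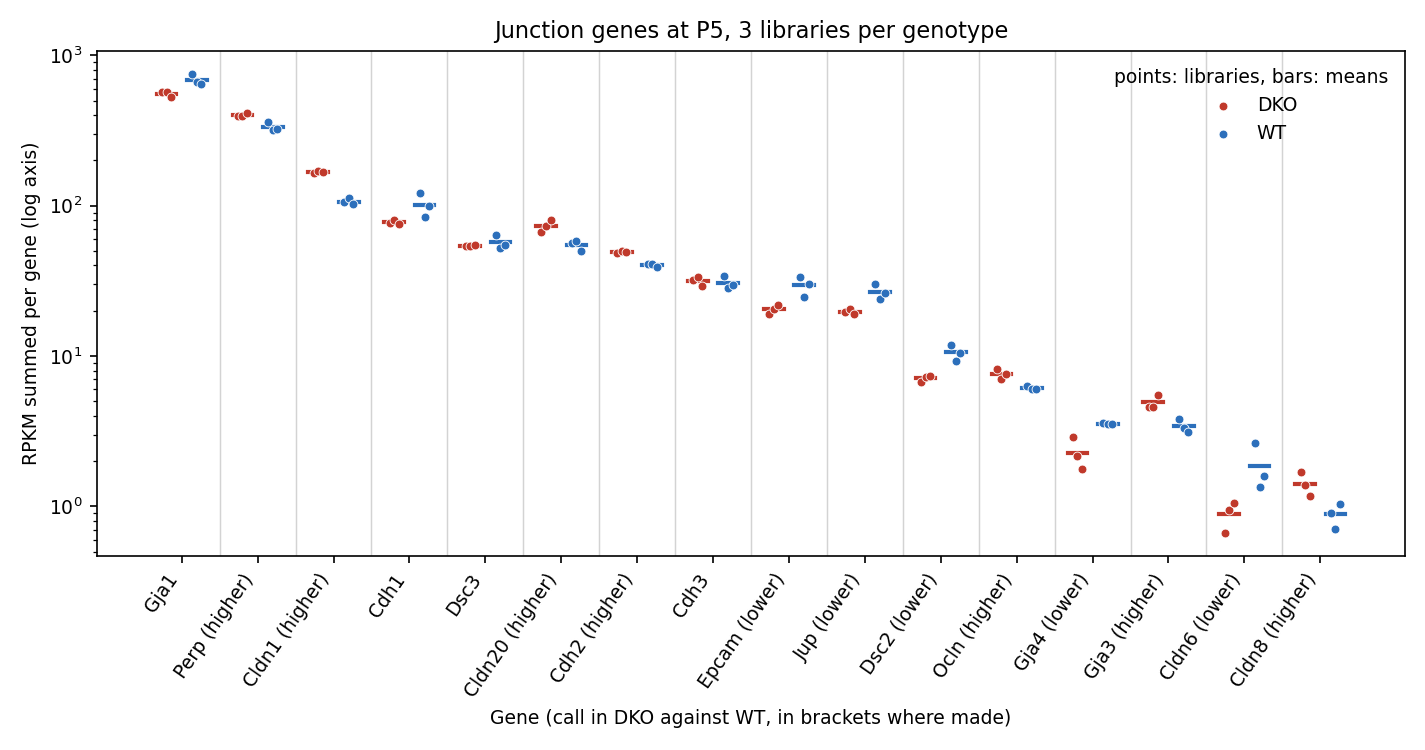
RPKM at P5 (log axis) of the 12 called junction genes and of Gja1, Cdh1, Dsc3 and Cdh3, with DKO libraries to the left of WT libraries; points are libraries and bars are group means. Cldn1 shows a wide gap on the log axis, with 164 to 170.5 RPKM in DKO and 102 to 112 RPKM in WT.

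Marker levels at P5 also differed. The 12 mesenchyme markers summed to 907 to 1297 RPKM in DKO and 2104 to 2298 RPKM in WT, with 7 lower and 0 higher, the 9 dental epithelium markers had 2 higher and 1 lower, and all 6 odontoblast and bone markers were lower. Amelx alone, the main enamel matrix gene, had 183477 ± 18718 RPKM in DKO and 100892 ± 9306 RPKM in WT (SD, n = 3 each), a large part of each library. The 5 stratum intermedium markers summed to 419 to 439 RPKM in DKO and 475 to 581 RPKM in WT, with 1 lower. Sums are as deposited, where the median gene differed by -0.25 on the log2 scale. Over all genes tested at P5, 7.35% were called higher and 30.8% lower, so 1 of 5 lower is no more than that share. The part of these marker differences in the results for junction genes was not tested.

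Whether the effect of genotype differed between stages was tested gene by gene, as the fold change at the later stage minus that at the earlier one. Of the 32 junction genes tested at P5 and E17, 11 had an effect more negative at P5 on both scales, where 27.5% of all 11049 genes did, and 1, Cdh2, had a more positive one, where 2.61% of all genes did. The share of 11 in 32 is close to that of all genes. Epcam had a fold change of -0.50 at P5 and 0.77 at E17, a difference of -1.27 as deposited and -0.77 scaled. Cldn6 differed by -1.29 and -0.89, and Gja1 by -1.26 and -0.75. Epcam and Cldn6 were each called lower at P5 and higher at E17, with P5 calls that were lost in the settings given above. Cdh2 went the other way, called higher at P5 and lower at E17, with a difference of 0.57 as deposited and 1.06 scaled.

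Cldn17 had the widest difference, -1.70 and -1.37, from low and scattered values. Dsc3 differed by -0.84 and -0.33, Cdh3 by -0.72 and -0.23, Dsg2 by -0.89 and -0.41, and Cldn10 by -0.77 and -0.31. Gjb6, Marveld3 and Pkp4 completed the 11. Cldn1 was not among them, since its effect at P5 was smaller than at E17 as deposited (-0.25) and larger after scaling (0.24). Gja1, the only junction gene with a call in a pair of stages that includes P0, had a smaller effect at P0 than at E17 (-0.62 and -0.31, where 23.9% of all genes were more negative). Its effect was more negative at P5 than at P0 (-0.64 and -0.44, where 31.2% were), with 0.33 at P0 and -0.30 at P5 as deposited. In these pairs 0 of 3 genes had a more positive effect at the later stage, where 7.71% of all genes did for P0 against E17 and 9.9% for P5 against P0. The difference between P0 and E17 was no longer called without DKO replicate 3 or WT replicate 3 of P0. The 3 comparisons of Gja1 share the libraries of a stage pairwise.

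**Figure D4:**
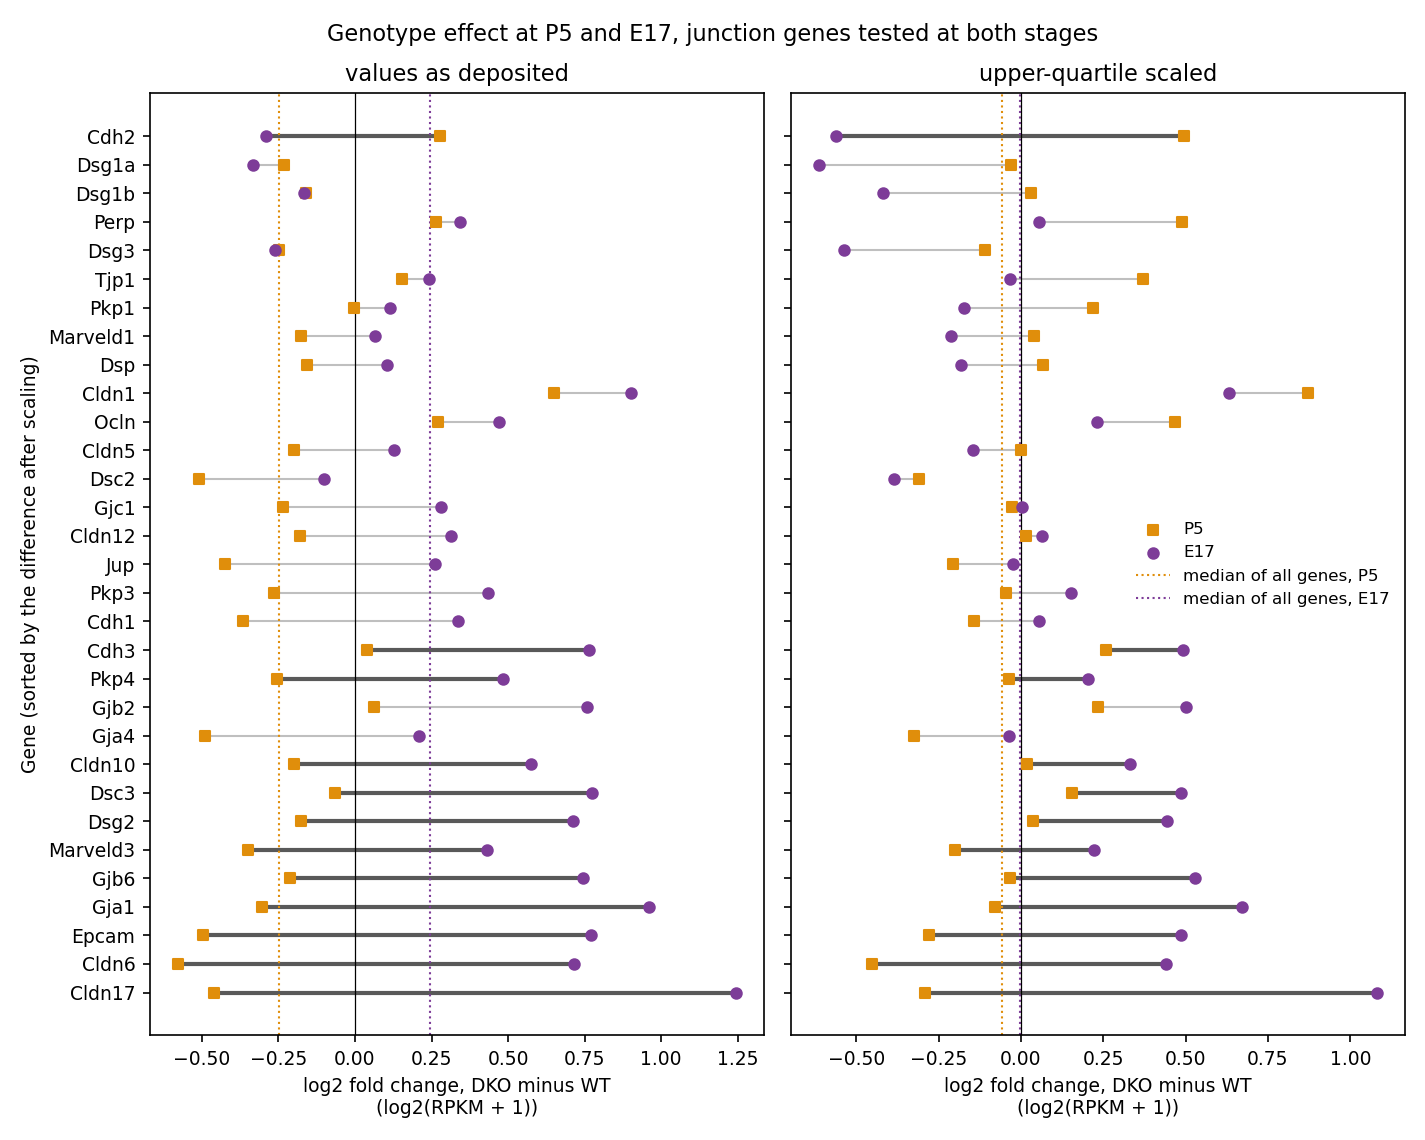
Log2 fold change (DKO minus WT, log2(RPKM + 1)) at P5 (squares) and E17 (circles) of junction genes tested at both stages, as deposited (left) and scaled (right); dark lines mark differences past the threshold on both scales and dotted lines the median of all genes. Scaling draws both medians towards 0 and leaves Cdh2 higher at P5 and Epcam, Cldn6, Gja1 and Cldn17 with the longest lines to the left.

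Ratios of a pair of genes within a library do not depend on how libraries are scaled. With 3 libraries against 3 the smallest two-sided exact permutation p is 0.10, so none of the 18 ratios computed could pass 0.05. The ratio of Cdh1 to Cdh2 was 3.19, 3.02 and 3.02 in DKO libraries at E17, against 2.12, 1.75 and 2.002 in WT libraries. At P5 it was 1.59, 1.61 and 1.55 in DKO, against 2.97, 2.06 and 2.52 in WT. The groups were apart at both stages and in opposite order, with a log2 difference of 0.66 at E17 and -0.65 at P5 (DKO minus WT, exact permutation p = 0.10 each, 0.15 after Benjamini-Hochberg adjustment over the 18). The ratio of Dsc3 to Dsc2 was 1.59, 2.26 and 1.69 in DKO at E17 against 0.961, 1.01 and 0.985 in WT, and 8.04, 7.50 and 7.41 in DKO at P5 against 5.35, 5.68 and 5.17 in WT, higher in DKO at both stages. Cldn1 to Tjp1 was also higher in every DKO library at both stages, by 0.71 on the log2 scale at E17 and 0.49 at P5. The ratio of Dsg3 to Dsg2 was 1.25, 0.845 and 1.20 in DKO at E17 against 2.46, 2.16 and 2.09 in WT, and its groups at P5 overlapped.

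Transcripts of a gene were compared by their share of its RPKM, again free of library scaling. Shares are estimates where transcripts overlap, and those described were picked after their values were seen. At E17 the groups did not overlap for 5 of 47 transcripts of 18 junction genes, where 21.0% of all 16263 transcripts did not. At P5 they did not for 10 of 25 transcripts of 10 genes, where 29.1% of all 7451 did not, and at P0 for 1 of 3, where 24.0% did not. Tested as single transcripts, 8 of 70 from junction genes were called higher and 1 lower at E17, where 2.46% and 1.88% of all were, and 8 of 50 were called higher and 2 lower at P5, where 6.95% and 17.9% of all were. At P0 it was 2 of 5 higher and 0 lower, where 12.2% and 12.4% were. Of the 2 Dsc3 transcripts listed at P5, NM_001291809 held 40.7%, 43.0% and 48.5% in DKO libraries, against 30.0%, 34.1% and 34.9% in WT libraries. Of Dsc2, NM_001317365 held 26.9%, 38.8% and 34.6% in DKO against 51.8%, 46.7% and 54.0% in WT. That transcript was called lower, with a fold change of -0.92 as deposited and -0.74 scaled. Gjc1, the gene of Cx45, was not called as a whole, but NM_008122 held 17.5%, 21.7% and 19.8% of it in DKO against 5.27%, 6.17% and 9.04% in WT. It was called higher (0.73 and 0.86). For each of these shares the exact permutation p is 0.10, the smallest possible.

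**Figure D5:**
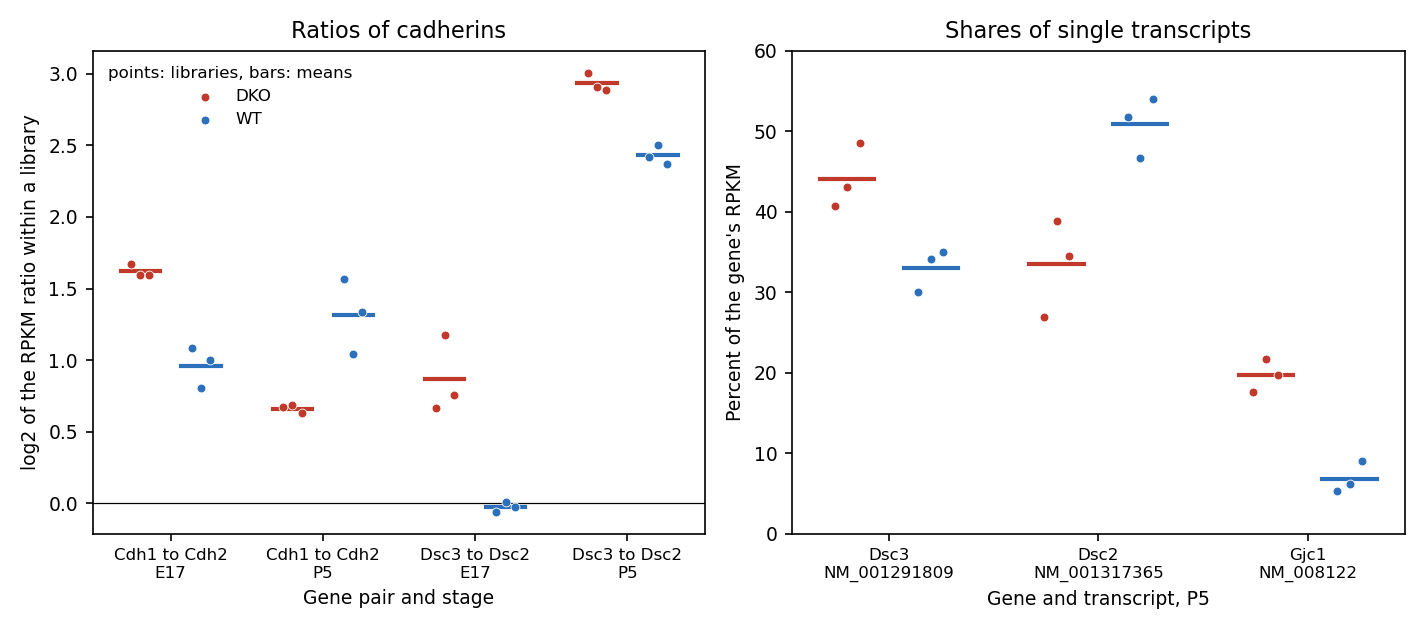
Left, log2 ratio of RPKM within each library for Cdh1 to Cdh2 and Dsc3 to Dsc2 at E17 and P5; right, percent of the gene's RPKM held by a single transcript of Dsc3, Dsc2 and Gjc1 at P5; DKO points are left of WT points and bars are means. The order of DKO and WT for Cdh1 to Cdh2 turns round between E17 and P5, while Dsc3 to Dsc2 stays higher in DKO.

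Genes that work with the junctions were taken from 4 lists, whose values are given as mean ± SD (n = 3 each). The share of all genes called higher and lower was 6.61% and 3.07% at E17, 16.7% and 22.8% at P0, and 7.35% and 30.8% at P5, and the counts below are read against it. Of 24 tight junction scaffold and polarity genes tested at E17, 4 were higher and 0 lower: Cxadr, an adhesion receptor of tight junctions (14.7 ± 1.09 RPKM in DKO and 9.06 ± 0.320 RPKM in WT), Lsr, which marks corners where 3 cells meet, Ybx3, which codes for a ZO-1-associated factor, and the polarity gene Pard6b. At P5, 3 of 23 were higher and 7 lower, the share lower being close to the 30.8% of all genes. Cxadr was higher again (41.7 ± 2.37 RPKM in DKO and 22.7 ± 1.23 RPKM in WT), as was Ildr2, a relative of Lsr. Pard6a was among those lower (1.59 ± 0.112 RPKM in DKO and 4.13 ± 0.509 RPKM in WT), with Amotl2 and Jam2. At P0, 1 of 2 was called: Ildr2, at 11.99 ± 1.03 RPKM in DKO and 1.22 ± 0.135 RPKM in WT, a log2 fold change of 2.55. The median fold change of the list was 0.29 as deposited and 0.07 scaled at E17, and -0.23 and -0.05 at P5.

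Of 22 adherens junction and desmosome partners tested at E17, 6 were higher and 0 lower, among them the nectins Nectin3 (37.1 ± 1.79 RPKM in DKO and 18.6 ± 1.21 RPKM in WT) and Nectin4, the cadherin Cdh6, the beta-catenin gene Ctnnb1 and Ctnna2. At P5, 2 of 21 were higher and 4 were lower, where 7.35% and 30.8% of all genes were. Ctnna1, an alpha-catenin gene (40.6 ± 0.308 RPKM in DKO and 55.1 ± 3.62 RPKM in WT), Cdh11, Vcl and Cdh6 were the 4, and Pcdh7, a protocadherin gene, was higher. The other gene higher was Ctnna2, an alpha-catenin gene singled out after its values were seen, with 206.7 ± 14.8 RPKM in DKO and 166 ± 9.30 RPKM in WT. The list had a median of 0.24 as deposited and -0.03 scaled at E17, and of -0.21 and 0.02 at P5. At P0 the single gene tested was not called.

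Of 8 pannexins and connexin partners tested at E17, Panx1 was higher and Panx3, a channel gene of bone and cartilage, was lower. At P5, Panx3 was lower again (1.13 ± 0.210 RPKM in DKO and 4.97 ± 1.12 RPKM in WT), as was the kinase gene Csnk1d, 2 of 7 tested, and 0 were higher (30.8% and 7.35% of all genes). The single gene tested at P0 was not called. The medians were 0.15 and -0.10 at E17, and -0.10 and 0.11 at P5. Panx3 at E17 and P5 went with the odontoblast and bone markers, which summed to 146 to 259 RPKM in DKO and 380.1 to 454 RPKM in WT at E17 and to 283 to 319 RPKM in DKO and 611 to 846 RPKM in WT at P5. Their part in the result was not tested.

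Transcription factors known to act on epithelial junction genes were the fourth list. At E17, 5 of 21 tested were higher and 0 lower: Satb1, Trp63, which maintains stratified epithelia, Ovol1, Twist2 and Ehf. At P5, 6 of 17 were lower and 0 higher, the share lower being close to the 30.8% of all genes. Grhl2, which activates epithelial junction genes, had 2.73 ± 0.234 RPKM in DKO and 4.37 ± 0.317 RPKM in WT, and the others included Snai1, Snai2, Zeb2 and Twist2, factors of mesenchymal cells that repress such genes or are active beside them. At P0, Twist2 was lower, 1 of 3 tested. The medians were 0.40 and 0.12 at E17, and -0.27 and -0.14 at P5.

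The junction genes below the filter were 23 at E17, 3 at P0 and 30 at P5. The highest single value among the 23 at E17 was 1.18 RPKM, of Cldn8, and 17 stayed under 0.5 RPKM throughout, among them Cldn2, Cldn14, Cldn16, Cldn19, Dsg4 and Gjd2. At P5 the highest single value among the 30 was 1.598 RPKM, of Cldn4 in a WT library. Cldn4 had 0.725, 0.525 and 0.803 RPKM in DKO and 1.60, 0.920 and 1.21 RPKM in WT at P5, and 25 of the 30 stayed under 0.5 RPKM. The tested genes that were not called, 29 at E17, 1 at P0 and 23 at P5, had scaled fold changes of -0.61 to 0.50 at E17, 0.19 at P0 and -0.29 to 0.37 at P5.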

How the data were processed

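RNA of 18 dental epithelium libraries was depleted of ribosomal RNA and sequenced, per the labels' protocols. Per the submitters' processing notes, the authors used Partek on mm10; the sources used here give no aligner, annotation or strand setting. The deposited values per transcript are taken as RPKM, scaled by the authors to length and mapped reads. This unit was inferred from the values at E17 and P0. For each library the total of mapped reads was chosen that made the most low values of genes with 1 transcript whole reads. At that best fit, 89.0% to 92.0% of them were multiples of 1 read within 0.1 read. The deposited count of alignments per library, per the file headers, gives the depth, which sets the steps of low values.

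Values were summed per symbol, and each stage, with its own table, was tested alone. The test was limma 3.58.1 (R 4.3.3, empirical Bayes with trend) on log2(RPKM + 1), over all symbols with at least 1 RPKM in at least 3 of 6 libraries. Stage differences used Satterthwaite degrees of freedom. Fits were checked on simulated data. Gene positions are from GENCODE M21 and promoters from RefSeq. Transcripts carry Ensembl-type names at E17 and P0 and RefSeq names at P5. The P0 table used here covers 4841 symbols; further genes of that stage were left out of the tests. A few genes in the counts are not reported here by name.

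The junction genes, the 4 lists and the markers were chosen with earlier results of these data known. Every library is given for Cldn1, Gja1, Dsc3, Cdh1, Cdh2, Cdh3 and Epcam, for members reaching 1 RPKM at P0 and for called members; of a list, up to 5 called genes are named by smallest p. Gjb2, Dsg3, Tjp1, Cldn4 and, at P5, Cldn10 were added after their values were seen. Alternatives were each scaling alone, median-of-ratios scaling, no filter, a filter on the mean, a pseudocount of 0.1, no trend, a log2 fold change of at least 1 in size, the replicate block and each library left out. Leaving out libraries for stage differences and transcript shares was added after seeing the data.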

Additional observations from a re-analysis of the deposited data

Results flagged for a closer look

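Of the junction genes, 12 differed between stages in their genotype effect (fold change at the later stage minus that at the earlier one, as deposited, past an adjusted p of 0.05 on both scales). Between P5 and E17 the effect was more negative at P5 for Cldn17 (-1.70), Cldn6 (-1.29), Epcam (-1.27), Gja1 (-1.26), Gjb6 (-0.96), Dsg2 (-0.89), Dsc3 (-0.84), Marveld3 (-0.78), Cldn10 (-0.77), Pkp4 (-0.74) and Cdh3 (-0.72), and more positive for Cdh2 (0.57). For Gja1, of 3 junction genes tested in each pair with P0, it was also more negative at P0 than at E17 (-0.62) and at P5 than at P0 (-0.64). There 23.9% and 31.2% of all genes were more negative. Over all genes, 27.5% were more negative and 2.61% more positive at P5 than at E17. The 11 more negative of 32 junction genes tested at both stages are close to that share.

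Epcam and Cldn6 were called lower at P5 and higher at E17. The P5 call of Epcam was lost with median-of-ratios scaling (adjusted p = 0.105) and without the filter (0.0826), and that of Cldn6 without the filter (0.0859), and both were lost when some single libraries were left out. Cdh2 was called higher at P5 and lower at E17. Marveld3, which codes for a MARVEL protein of tight junctions, was not called at either stage.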

How the results depend on the processing

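Of 473 values of 34 named gene and stage pairs under alternatives, 399 kept their direction and call status, 64 kept the direction and lost the call, 6 gained one and 4 changed sign. At E17 the 13 higher became 27 on deposited values alone, 6 without the filter and 1 with a log2 fold change of at least 1, and the 1 lower became 4 on scaled values alone, 0 without the filter, 0 with the fold rule and 2 with the replicate block. At P0 the 2 higher became 0 with the fold rule, and the 0 lower became 1 without the filter. At P5 the 7 higher became 12 on scaled values alone and 0 with the fold rule, and the 5 lower became 15 on deposited values alone, 2 with median-of-ratios scaling, 3 without the filter, 0 with the fold rule and 3 with the replicate block. Leaving out single libraries gave 7 to 12 higher and 0 to 3 lower at E17, 1 to 3 higher at P0, and 6 to 8 higher and 1 to 6 lower at P5. Shares of all genes were taken on both scales and on each scale alone, so the other counts here are not set against all genes. The replicate numbers showed no clear pairing of libraries, though 3 libraries per group cannot exclude it. Deviations of libraries with the same number correlated at -0.02, 0.22 and -0.02 at E17 (-0.17, 0.27 and -0.08 at P0, -0.22, -0.07 and 0.04 at P5). The block left 11 higher at E17, 2 at P0 and 7 at P5. With it the calls of Gjb6 and Pkp4 at E17 and of Cldn6, Gja4 and Jup at P5 were lost (adjusted p from 0.0501 to 0.0589), and without limma's trend that of Pkp4 at E17 was (0.0665).

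For effects between stages, the count more positive at P5 than at E17 was 1 of 32 tested, where 2.61% of all genes were. It became 9 on scaled values alone and 6 without the filter. That at P0 against E17 became 2 on scaled values alone, from 0 of 3 tested. Without the filter, P0 against E17 had 2 more negative, and P5 against P0 had 1 more positive and 2 more negative. Leaving out libraries gave 8 to 11 more negative at P5 than at E17, and 0 to 1 at P0 than at E17. For stage effects the share of all genes was taken on both scales only, so the counts under alternatives are not set against all genes. Dsc3 at P5 was -0.07 as deposited and changed sign to 0.16 on scaled values alone, where it passed (adjusted p = 0.0384). Leaving out single libraries, the fold change of Cdh3 at P5 ran from -0.012 (without WT replicate 2; -0.002 without DKO replicate 2) to 0.12, and that of Dsc3 at P5 from -0.12 to 0.017 (without WT replicate 1). The log2 ratio of Gja1 to Gjb2 at E17 ran from -0.19 (without DKO replicate 2) to 0.34, that of Gja1 to Gjb6 from -0.16 to 0.095 at E17 (without DKO replicate 1; 0.04 without WT replicate 1) and from -0.29 to 0.21 at P5 (without WT replicate 1; 0.003 without DKO replicate 3), and that of Pkp1 to Pkp2 at E17 from -0.11 to 0.14 (without WT replicate 3; 0.04 without DKO replicate 1). The cause of these changes was not tested. Depth and the filter of 1 RPKM limit what can be said of Cldn6, Cldn8, Cldn17 and Dsc1.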

Other observations

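Marker lists not set beside a junction gene above are given here, with sums as deposited. Over all genes, 6.61% were called higher and 3.07% lower at E17, and 7.35% and 30.8% at P5. The 6 red cell markers summed to 7653 to 15238 RPKM in DKO and 4205 to 5234 RPKM in WT at E17, with 4 higher. At P5 they summed to 350.5 to 792 RPKM in DKO and 902 to 980.6 RPKM in WT, with 4 lower of 4 tested. The 6 glia and neuron markers summed to 36.1 to 37.8 RPKM in DKO and 13.5 to 14.9 RPKM in WT at E17. Of 5 tested there, Tubb3 and Stmn2 were higher, and the median fold change was 0.19 as deposited and -0.008 scaled. At P5 these markers summed to 34.2 to 44.9 RPKM in DKO and 70.7 to 115 RPKM in WT, with 1 higher and 1 lower of 3 tested. The 8 skeletal muscle markers summed to 329.9 to 442 RPKM in DKO and 354 to 815 RPKM in WT at E17, with 5 lower. The 6 immune cell markers summed to 95.1 to 103 RPKM in DKO and 69.8 to 80.1 RPKM in WT at E17, with 0 called. At P5 they summed to 21.99 to 28.7 RPKM in DKO and 37.1 to 48.1 RPKM in WT, with 4 lower of 5 tested. The 8 endothelium markers at E17 summed to 92.7 to 98.9 RPKM in DKO and 88.5 to 102 RPKM in WT, with 0 called.

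Other transcript shares at P5 that did not overlap between genotypes, picked after their values were seen, were those of Pkp3, Pkp4, Cldn12 and Ocln. The Cldn12 transcript NM_022890 held 62.2%, 45.3% and 53.1% of the gene in DKO libraries, against 78.8%, 66.6% and 65.3% in WT libraries. The Pkp3 transcript NM_001162924 held 31.5%, 21.2% and 24.2% in DKO against 18.4%, 21.2% and 16.5% in WT, with DKO replicate 2 and WT replicate 2 nearly equal.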
